A study of Rattus norvegicus with 14 samples.

Results

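The 9 genes Acaa2, Acadm, Hadha, Hadhb, Cpt1a, Cpt1b, Angptl4, Pdk4 and Fabp3 belong to mitochondrial fatty acid oxidation or are targets of the peroxisome proliferator-activated receptors (PPARs). They were taken by symbol from the annotation of the array. They had 14 probe sets that carried no other symbol, out of 14217 genes that could be named in this way, and each gene was represented by its probe set of highest mean over the 14 arrays. RNA came from the thoracic aorta of Sprague-Dawley rats, 1 array per sample. A-CRF (8 arrays) denotes rats in which adenine had induced chronic renal failure and Control (6 arrays) the rats set against them; the sources used here do not give dose, duration, age, sex or feeding state. Arrays are numbered within a group in the order of deposition. Nothing in the labels ties each array to an animal of its own. The p-values therefore reflect spread among these samples, part of which may be technical.

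Fatty acids that enter a cell are carried in the cytosol by binding proteins such as Fabp3 and are passed into mitochondria by the carnitine palmitoyltransferases Cpt1a and Cpt1b, the controlled entry step. Inside, chain shortening is carried out by acyl-CoA dehydrogenases such as Acadm, the trifunctional protein built from Hadha and Hadhb, and thiolases such as Acaa2. PPARs are nuclear receptors that bind fatty acids and switch on many of these genes. Pdk4, which shuts off pyruvate oxidation, and Angptl4, a secreted inhibitor of lipoprotein lipase, are PPAR targets induced by fasting in many tissues. In rodents the fat around the thoracic aorta resembles brown fat, a tissue rich in oxidation enzymes. The sources used here do not say whether that fat was removed, and in whole tissue fewer cells of a type cannot be told apart from less RNA per cell.

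The data were deposited as log2-scale probe set values, from 4.82 to 12.64. The log base was inferred from this range, so folds hold only if the base is as inferred. For 59.0% of probe sets the mean lay less than 1 log2 unit over the lowest value, where changes are hard to see. Background shares and medians over all probe sets, given below, include these. GAPDH probe sets at the 3' end read brighter than those at the 5' end by 1.90 log2 units on A-CRF 1, 1.63 on A-CRF 4 and 1.58 on Control 1. On the remaining arrays this gap, which grows as RNA breaks, was 0.37 to 0.55. The smooth muscle markers, which define the labelled tissue, were all measured above the lowest range (8 of 8), with a mean level of 9.28 to 9.77 in A-CRF and 9.54 to 10.17 in Control. Of these, 1 passed the test used below (background 0.789% of all probe sets lower), Myh11, a myosin heavy chain, at -0.29 ± 0.07 (SE). In 7 of the 8 the mean was lower in A-CRF, as in 52.7% of all probe sets, and the list median was -0.25 log2 units. None of 8 endothelial markers passed (mean level 6.44 to 6.67 in A-CRF and 6.41 to 6.68 in Control).

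Whether aortic fatty acid oxidation genes differ in renal failure was read from A-CRF against Control. The mitochondrial enzymes and Cpt1b had lower means in A-CRF, by 0.25 to 0.76 log2 units, whereas Angptl4 had a mean 0.68 log2 units higher. Pdk4, the other fasting-induced gene, lay on the side of the enzymes. None of the 9 genes passed an adjusted p of 0.05 (limma, Benjamini-Hochberg over all 31042 probe sets), in either direction, where 2.05% of all probe sets did (1.26% higher and 0.789% lower). At an unadjusted p under 0.05 limma gave 1 higher gene, Angptl4, and 3 lower genes, Acaa2, Hadha and Hadhb, against a background of 14.4% of all probe sets. Exact permutation tests, unadjusted, gave 1 higher gene (Angptl4) and 2 lower ones (Acaa2 and Hadha). They were run on the 9 genes only, so no background share is at hand. The 9 genes were chosen with earlier results of these data known, which the unadjusted p-values do not allow for. The median change of the 9 genes was -0.31 log2 units and that of all probe sets -0.0020, and 6 of the 9 genes were below 0, as were 52.7% of all probe sets. Of the 9 genes 8 had a Control mean clear of the lowest range, where most probe sets lay, so these backgrounds are loose. In no gene were the groups free of overlap (background 1.38%), and in 1 gene, Angptl4, every one of the 8 A-CRF arrays exceeded the Control median (background 11.4% for all on either side).

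**Figure D1:**
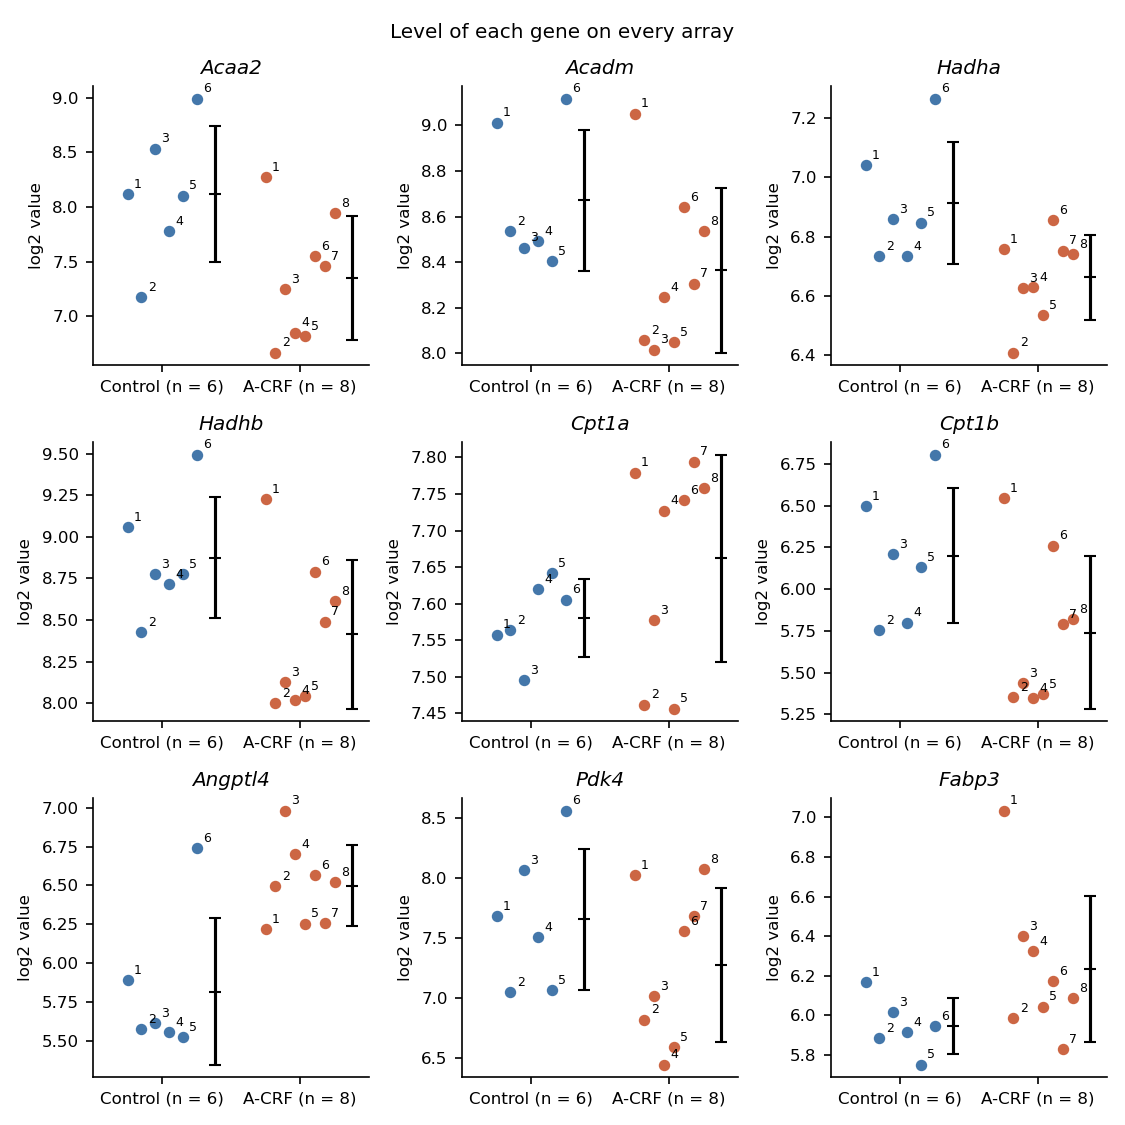
Log2 value of each of the 9 genes on every array, with 1 point per array, replicate numbers beside the points, and the mean with its SD as a bar (6 Control and 8 A-CRF arrays). Each panel has its own axis. In A-CRF the enzyme genes and Cpt1b were lowest on arrays 2, 3, 4 and 5, and Angptl4 in Control was high on array 6 alone, at 6.74.

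Hadha and Hadhb encode the alpha and beta subunits of the trifunctional protein, which carries out the last steps of long-chain oxidation. In the rat genome they lie head to head: in the RefSeq promoter table (build GRCr8) their start sites are 300 bases apart, and the stretches of 250 bases before each start share 200 bases. This shared stretch is shown because a single piece of DNA borders both genes. It lies at chr6:31907551-31907750 and is written on the plus strand, the strand of Hadha. Capitals mark a GC box and a match to the direct repeat that PPARs bind with their partner RXR.
Hadha and Hadhb: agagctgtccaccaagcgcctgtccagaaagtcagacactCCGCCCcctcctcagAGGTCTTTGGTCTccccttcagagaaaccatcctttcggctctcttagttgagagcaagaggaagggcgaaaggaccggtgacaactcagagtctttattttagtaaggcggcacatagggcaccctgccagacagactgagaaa
The repeat, known as DR1, was searched as tandem copies of AGGTCA with 1 base between them, on both strands and with up to 3 mismatches, and the match here had 3. In the 250 bases before the start, 20.98% of all 27457 windows in the table held such a match, so it is common. The GC box, searched as GGGCGG on both strands, was found in 32.39% of all windows. A match describes letters and is not a binding site.

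Hadhb (probe set 1367694_at) was at 8.43, 8.78 and 9.49 log2 units in Control (lowest, median, highest) and at 8.001, 8.31 and 9.23 in A-CRF. On A-CRF 2, 3, 4 and 5 it was at 8.001 to 8.13, below every Control array, and the other A-CRF arrays lay inside the Control range. The means were 8.87 ± 0.36 in Control (SD, n = 6) and 8.41 ± 0.45 in A-CRF (SD, n = 8), a difference of -0.46 ± 0.21 (SE) that did not pass (limma, adjusted p = 0.32). Hadha (1370164_at) was at 6.73, 6.85 and 7.26 in Control and at 6.41, 6.69 and 6.86 in A-CRF, again with A-CRF 2, 3, 4 and 5 below all Control arrays. Its difference was -0.25 ± 0.09 (SE), a level 1.19-fold lower, with an adjusted p of 0.17 in limma and an unadjusted p of 0.015 by an exact permutation test. This was the smallest difference of the 4 enzyme genes and, by limma, the one with the lowest p. The remaining probe sets of Hadha, 1394857_at and 1394763_at, had means of 5.31 and 5.17, near the lowest values in the table, and showed differences of -0.0077 and -0.00071. As the mean of its 3 probe sets Hadha differed by -0.09 ± 0.03 (SE). The levels of Hadha and Hadhb followed each other across arrays: over the 14 arrays, each centred on its group mean, r was 0.83 and rho 0.85 (permutation p = 0.00011 and 5e-05, adjusted 0.00057 and 0.00060 over 36 pairs of the 9 genes). The r was 0.75 without the 2 arrays farthest out for Hadha, 0.78 within A-CRF, 0.97 within Control and 0.95 without the 3 arrays of high GAPDH difference.

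Acaa2, the thiolase that releases acetyl-CoA in the last step, had the largest mean difference of the enzymes. Its probe set 1386880_at was at 7.18, 8.11 and 8.99 in Control and at 6.67, 7.36 and 8.28 in A-CRF. A-CRF 2, 4 and 5 were below all Control arrays, and 1 A-CRF array, A-CRF 1, was above the Control median. The means of 8.12 ± 0.62 in Control (SD, n = 6) and 7.35 ± 0.57 in A-CRF (SD, n = 8) differed by -0.76 ± 0.30 (SE), a 1.70-fold lower level with a 95% interval of 0.38 to 0.91 for A-CRF over Control. It did not pass (limma, adjusted p = 0.22; exact permutation test, unadjusted p = 0.035). Its other probe set, 1380504_at, lay at a mean of 5.68 and differed by -0.06. As the mean of both probe sets Acaa2 differed by -0.41 ± 0.16 (SE).

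Acadm encodes medium-chain acyl-CoA dehydrogenase, the enzyme of the first oxidation step for medium chains. The 250 bases before its start, chr2:245542865-245543114 on the minus strand (GRCr8), are shown because they hold a full cyclic AMP response element, the site of CREB, a factor active in fasting. Capitals mark that element.
Acadm: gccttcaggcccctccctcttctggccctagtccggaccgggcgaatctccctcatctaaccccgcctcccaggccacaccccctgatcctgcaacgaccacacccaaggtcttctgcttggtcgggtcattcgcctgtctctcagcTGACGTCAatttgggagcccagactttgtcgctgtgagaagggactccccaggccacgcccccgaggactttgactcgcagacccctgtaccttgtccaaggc
The element, TGACGTCA, reads the same on both strands and was present in 1.70% of all windows; among the 7 of the 9 genes that had a window, Acadm was the 1 that held it. The repeat described above was not found in these letters. Acadm (1367702_at) was at 8.40, 8.51 and 9.12 in Control and 8.02, 8.28 and 9.05 in A-CRF. A-CRF 2, 3, 4, 5 and 7 were below all Control arrays, whereas A-CRF 1 at 9.05 was near the highest Control arrays, at 9.01 and 9.12. The difference was -0.31 ± 0.17 (SE) and did not pass (limma, adjusted p = 0.46; exact permutation test, unadjusted p = 0.12).

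Cpt1a and Cpt1b carry out the same step, loading fatty acids onto carnitine; Cpt1a is the form of liver and many other tissues and Cpt1b that of muscle and brown fat. Cpt1b (1367742_at) was at 5.75, 6.17 and 6.80 in Control and at 5.35, 5.61 and 6.54 in A-CRF. As for Hadha and Hadhb, A-CRF 2, 3, 4 and 5 were below all Control arrays, at 5.35 to 5.44, close to the bottom of the scale. The difference was -0.46 ± 0.22 (SE; limma, adjusted p = 0.36; exact permutation test, unadjusted p = 0.085). Cpt1a behaved otherwise: its probe set 1386946_at was at 7.50, 7.58 and 7.64 in Control and at 7.46, 7.73 and 7.79 in A-CRF. Of the A-CRF arrays 5 were above all Control arrays and 2, A-CRF 2 and 5, were below all of them, so the A-CRF spread (SD 0.14, n = 8) was wider than that of Control (SD 0.053, n = 6). The mean difference of 0.08 ± 0.06 (SE) did not pass (limma, adjusted p = 0.61), and its 95% interval ran from -0.04 to 0.20 log2 units. The second Cpt1a probe set, 1367836_at, had a mean of 5.53 and a difference of 0.02. The Cpt1a difference was 0.05 as the mean of both probe sets, with array weights and without the 3 arrays of high GAPDH difference.

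Angptl4 had the lowest limma p of the 9 genes. The 250 bases before its start, chr7:15258682-15258931 on the minus strand (GRCr8), are shown beside those of Pdk4, chr4:34568330-34568579 on the minus strand, since these are the fasting-induced genes. Capitals mark a TATA box in Angptl4, where matches of TATAAA on both strands overlap, and a GC box in Pdk4.
Angptl4: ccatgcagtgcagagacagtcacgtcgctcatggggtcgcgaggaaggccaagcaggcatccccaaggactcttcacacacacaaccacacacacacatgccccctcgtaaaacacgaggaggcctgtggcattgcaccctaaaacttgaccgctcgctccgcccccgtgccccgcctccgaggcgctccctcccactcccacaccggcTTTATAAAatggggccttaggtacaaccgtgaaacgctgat
Pdk4: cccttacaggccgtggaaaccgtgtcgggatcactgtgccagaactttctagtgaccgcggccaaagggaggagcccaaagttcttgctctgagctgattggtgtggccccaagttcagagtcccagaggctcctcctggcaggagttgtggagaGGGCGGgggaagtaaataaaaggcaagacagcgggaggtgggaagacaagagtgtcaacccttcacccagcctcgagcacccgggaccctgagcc
TATAAA was present in 13.09% of all windows, and of the 7 windows of these genes it was in that of Angptl4. A GC box, not in capitals, is in the Angptl4 window too. The direct repeat was found in neither window. Only the 250 bases before the start were searched, so a repeat elsewhere in or near these genes would be missed. The repeat was present in 3 of the 7 windows, those of Hadha, Hadhb and Fabp3, and the match of Hadha and Hadhb is the same stretch.

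In Control, Angptl4 (1388924_at) was at 5.89, 5.57, 5.61, 5.56, 5.52 and 6.74 on arrays 1 to 6. In A-CRF it was at 6.22, 6.49, 6.98, 6.70, 6.25, 6.56, 6.26 and 6.52 on arrays 1 to 8. All A-CRF arrays were thus above 5 of the 6 Control arrays, and 7 of them were below Control 6. The means of 5.82 ± 0.47 in Control (SD, n = 6) and 6.50 ± 0.26 in A-CRF (SD, n = 8) differed by 0.68 ± 0.18 (SE). The Control mean lay in the lowest range, less than 1 log2 unit over the lowest value of all (a bound of 5.82), as did 4 of the 6 Control arrays, so the size of the difference is uncertain and no fold is given. With all arrays this did not pass (limma, adjusted p = 0.071; exact permutation test, unadjusted p = 0.0070). Without Control 6 the groups did not overlap, the difference was 0.87 ± 0.12 and it passed (limma, adjusted p = 0.0097). It also passed when dim probe sets were left out (adjusted p = 0.048), which leaves fewer probe sets to adjust over. Control 6 also had the highest mean of the white adipocyte markers among all arrays, 8.42, and the highest Control level of the brown fat gene Ucp1, 9.07. The lowest white marker mean, 6.72, was that of A-CRF 4, where Angptl4 was at 6.70. Of 15 macrophage markers 9 passed as higher (background 1.26% of all probe sets), and 13 were clear of the lowest range in Control. The mean level of these markers was 7.13 to 7.51 in A-CRF and 6.73 to 6.92 in Control. The part of fat or macrophage content in the Angptl4 values was not tested.

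Pdk4 did not follow Angptl4. Its probe set 1378074_at was at 7.05, 7.60 and 8.56 in Control and at 6.44, 7.28 and 8.07 in A-CRF. A-CRF 2, 3, 4 and 5 were below all Control arrays, at 6.44 to 7.01, and A-CRF 1, 6, 7 and 8 lay inside the Control range, at 7.56 to 8.07. The difference was -0.38 ± 0.31 (SE; limma, adjusted p = 0.68; exact permutation test, unadjusted p = 0.27), and its 95% interval ran from -1.05 to 0.28 log2 units. Without Control 6 it was -0.20 ± 0.30, and as the mean of both probe sets -0.23 ± 0.18. The second probe set, 1369150_at, had a mean of 5.96 and a difference of -0.07.

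Fabp3, the binding protein of heart and other oxidative tissues, was the remaining gene with a higher mean in A-CRF. Its probe set 1367660_at was at 5.75, 5.93 and 6.17 in Control and at 5.83, 6.13 and 7.03 in A-CRF, with 4 A-CRF arrays above all Control arrays. The highest value came from A-CRF 1, one of the arrays of high GAPDH difference. The difference was 0.29 ± 0.15 (SE; limma, adjusted p = 0.42), and 0.18 ± 0.09 without the 3 arrays of high GAPDH difference (adjusted p = 0.32), over 1.5 times smaller. Without A-CRF 1 alone it was 0.17.

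Set against each other within an array, the enzymes and the fasting-induced genes gave different pictures for Angptl4 and for Pdk4. The mean of Acaa2, Acadm, Hadha and Hadhb was 8.14 ± 0.34 log2 units in Control (SD, n = 6) and 7.70 ± 0.36 in A-CRF (SD, n = 8). The log ratio of Angptl4 to this mean, which has no meaning as a level because probes differ in brightness, ran from -2.55 to -1.98 in Control and from -2.11 to -0.52 in A-CRF. It was above the Control range on 7 of the 8 A-CRF arrays, all but A-CRF 1, and its group means differed by 1.13. Since most Control values of Angptl4 lay in the lowest range, the Control side of this ratio and the size of the difference rest partly on values near the bottom of the scale. The same log ratio for Pdk4 ran from -0.97 to -0.09 in Control and from -0.99 to 0.11 in A-CRF, with a difference of 0.06 between the group means. No test was made of these ratios, since the genes were chosen with results of these data known.

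The enzyme genes, Cpt1b and Pdk4 varied together from array to array, and for Angptl4 the groups gave r of opposite sign. Over the 14 arrays, centred on group means, r among the 4 enzymes and Cpt1b ranged from 0.72 to 0.97 (median 0.86 over 10 pairs), and the highest was that of Hadhb and Cpt1b. For Pdk4 with these 5 genes r ranged from 0.73 to 0.90, for Cpt1a from 0.50 to 0.58, for Fabp3 from 0.24 to 0.60 and for Angptl4 from 0.24 to 0.57. Within Control, Angptl4 had r of 0.71 to 0.94 with these 5 genes and 0.80 with Pdk4, and Control 6 was the highest Control array for all of them. Within A-CRF its r was -0.42 to -0.10 with the 5 genes and -0.34 with Pdk4. The difference between the groups was not tested. The genes share each array and its RNA quality, so these values are a description of the arrays. The genes most like each one, by r over the same centred values among 9369 genes of above-median signal, were named by rank. For Hadhb they were Cox8b (0.99), a cytochrome c oxidase subunit of brown fat and muscle, Hadh (0.99), the short-chain dehydrogenase of the same pathway, and Idh3g (0.98) of the citric acid cycle. For Acadm they were Idh3a (0.97), Ndufs1 (0.94) and Cyc1 (0.94), and for Cpt1b Cox8b (0.97), Mcrip2 (0.97) and Ptgr3 (0.96). For Acaa2 they were Eci2 (0.94), Etfb (0.93) and Mrpl16 (0.93), for Hadha Hddc3 (0.95), Suox (0.94) and Chkb (0.94), and for Pdk4 Abcd4 (0.93), Ndufa9 (0.93) and Ptgr2 (0.92). The nearest genes were less close for Cpt1a (Tmem120a 0.87, Slx1b 0.85, Amt 0.83), Fabp3 (Gpld1 0.89, Foxo1 0.86, Fbp2 0.86) and Angptl4 (Pla2g15 0.84, Alg8 0.83, Vrk3 0.83).

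Ucp1, the uncoupling protein that defines brown fat, varied with the enzyme genes from array to array. Of 9 measured brown adipocyte markers none passed, 4 were clear of the lowest range in Control (Ucp1, Cidea, Cox8b and Kcnk3), and Cox7a1, Elovl3, Dio2, Ppargc1a and Zic1 lay near the lowest values. The mean level of the list was 5.76 to 6.71 in A-CRF and 6.08 to 6.77 in Control. The list median difference was -0.03 log2 units, and 6 of the 9 had a lower mean in A-CRF, as had 52.7% of all probe sets. Ucp1 was at 6.88, 7.76 and 9.07 in Control and at 5.31, 6.80 and 9.75 in A-CRF (limma, adjusted p = 0.56). A-CRF 2, 3, 4 and 5 had the lowest Ucp1, at 5.31 to 6.15, and A-CRF 1 the highest.

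**Figure D2:**
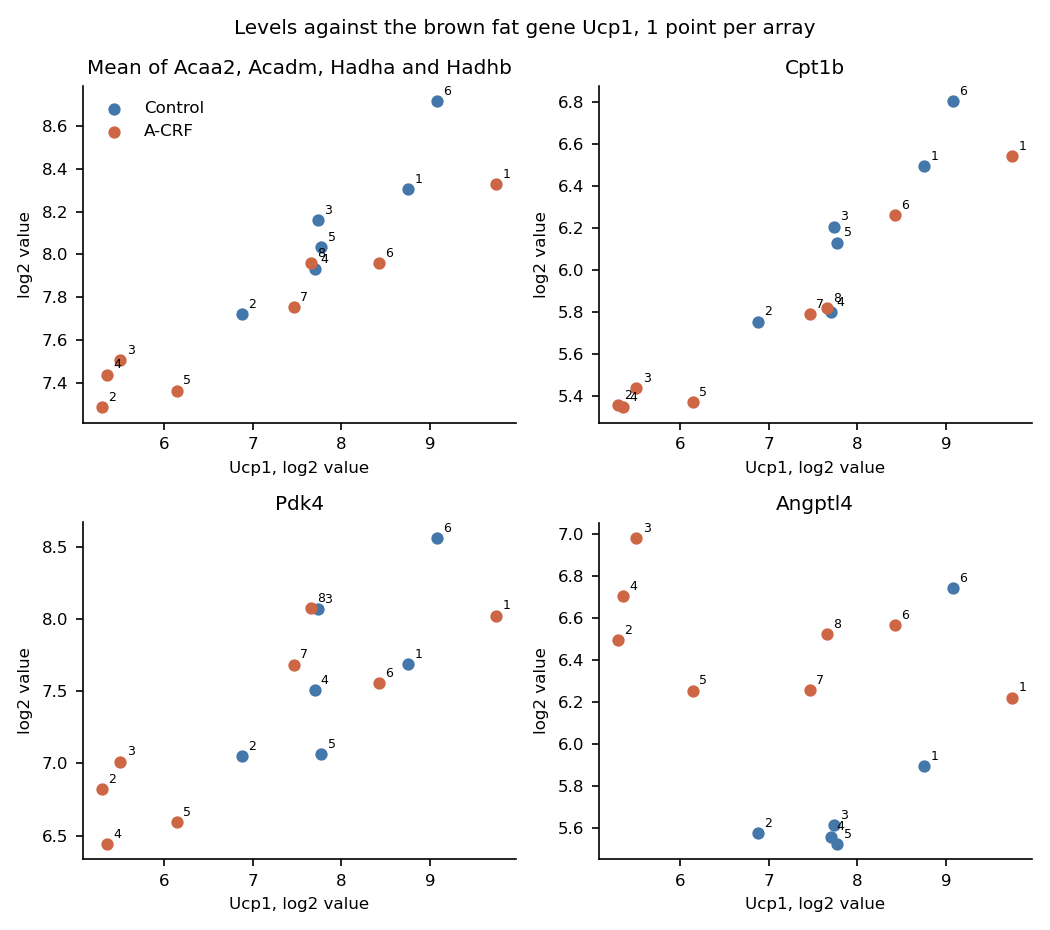
Log2 values of the enzyme mean, Cpt1b, Pdk4 and Angptl4 (vertical axes) against Ucp1 (horizontal axes), with 1 point per array and replicate numbers beside the points. The first 3 have positive r with Ucp1 in both groups. For Angptl4 r was 0.81 within Control, where Control 6 is highest on both axes, and -0.54 within A-CRF, with 5 of the 6 Control arrays below every A-CRF array.

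Ucp1 was chosen for this comparison after its values were seen, and the genes were chosen with results of these data known. The p-values in this paragraph do not allow for these choices, so they describe the arrays only. For Hadhb the correlation with Ucp1 was r = 0.96 and rho = 0.95 over the 14 arrays centred on group means (permutation p = 2e-05 and 3e-05, adjusted 0.00054 and 0.00081 over 54 relations). It was 0.92 without the 2 arrays farthest out in Ucp1, 0.93 without the 3 arrays of high GAPDH difference, 0.98 within A-CRF and 0.96 within Control (exact permutation tests, adjusted p = 0.0031 and 0.014). For the 4 enzymes, Cpt1b and Pdk4 r ranged from 0.73 to 0.96 and all 6 passed (highest adjusted p of a permutation test 0.0091 for r and 0.027 for rho), with 0.78 to 0.92 when the 2 farthest arrays were left out. Within A-CRF r was 0.78 to 0.98 and 4 of the 6 passed; by rho Acadm no longer did (exact permutation test, adjusted p = 0.078), and Acaa2, Hadhb and Cpt1b did. Within Control it was 0.74 to 0.96 and 2 passed, Hadha and Hadhb. By rho neither did (exact permutation tests, adjusted p = 0.064 for both). With the 2 farthest arrays left out r turned to -0.79 for Acadm, whose relation in Control thus rests on those arrays. Angptl4 gave r = -0.02 (rho = -0.07, permutation p = 0.95 and 0.82, adjusted 0.95 and 0.85), with -0.54 within A-CRF and 0.81 within Control, the latter -0.16 without the 2 farthest arrays. Cpt1a gave 0.61 and Fabp3 0.47, and neither passed (permutation tests, adjusted p = 0.17 and 0.33). A score averaging all 9 brown markers equally gave r from -0.13 to 0.68 over the 14 arrays and none passed (lowest adjusted p of a permutation test 0.055). That score gives markers near the lowest values the same weight and did not rank the arrays as Ucp1 did. It was 0.14 on A-CRF 2 (Ucp1 5.31) and -0.86 on A-CRF 7 (Ucp1 7.46). Cox8b, clear of the lowest range in Control, was at 8.36 on A-CRF 1 and 5.33 to 5.81 on A-CRF 2 to 5.

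With the Ucp1 level as a covariate in limma the differences of the enzymes shrank, from -0.46 to -0.16 ± 0.07 (SE) for Hadhb, from -0.46 to -0.15 ± 0.09 for Cpt1b, from -0.31 to -0.07 ± 0.09 for Acadm, from -0.25 to -0.15 ± 0.07 for Hadha and from -0.76 to -0.39 ± 0.19 for Acaa2. For Pdk4 the difference became -0.00079 ± 0.21. That of Cpt1a became 0.13 ± 0.05. That of Angptl4 stayed at 0.68 ± 0.20 (adjusted p = 0.17) and that of Fabp3 became 0.40 ± 0.15. No gene passed. Ucp1 itself differed by -1.04 log2 units and varied with the enzymes, Cpt1b and Pdk4. Smaller differences for these genes follow from those values and are no separate result. Ucp1 was chosen after its values were seen, and what its own difference reflects was not tested. With the equal-weight brown score the differences were -0.30 for Hadhb, -0.29 for Cpt1b, -0.12 for Acadm, -0.61 for Acaa2 and -0.22 for Hadha. They were -0.22 for Pdk4, 0.07 for Cpt1a, 0.79 for Angptl4 and 0.48 for Fabp3. With the white adipocyte score they were -0.24, -0.23, -0.16, -0.46, -0.17, -0.05, 0.11, 0.77 and 0.36 in the same order. Hadha thus moved little with the brown score, from -0.25 to -0.22, though that score did not rank the arrays as Ucp1 did. Over all probe sets 0.789% passed as lower, the background for the adipocyte and muscle markers here. Of 11 white adipocyte markers 1 passed, Pnpla3 at -0.79 ± 0.14 (SE, limma, adjusted p = 0.014), which had an adjusted p of 0.055 with the brown score. The mean level of that list was 6.72 to 8.22 in A-CRF and 7.56 to 8.42 in Control. Skeletal muscle markers, 3 of 10 above the lowest range in Control, had mean levels of 5.91 to 6.08 and 5.96 to 6.10, and 1 passed, Ckm at -0.41 ± 0.08 (adjusted p = 0.023), which did not pass without Control 5 (0.0502) or with the Ucp1 or an adipocyte covariate (highest 0.077). The others of these 3 were the actin gene Acta1, at 0.43 ± 0.19 (adjusted p = 0.30) with 7 of 8 A-CRF arrays above the Control median, and the myosin gene Myh1, at -0.33 ± 0.20 (adjusted p = 0.51). The list median was 0.0033. Cardiac muscle markers lay at 5.74 to 5.84 in A-CRF and 5.67 to 5.88 in Control, and none of 7 passed.

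**Figure D3:**
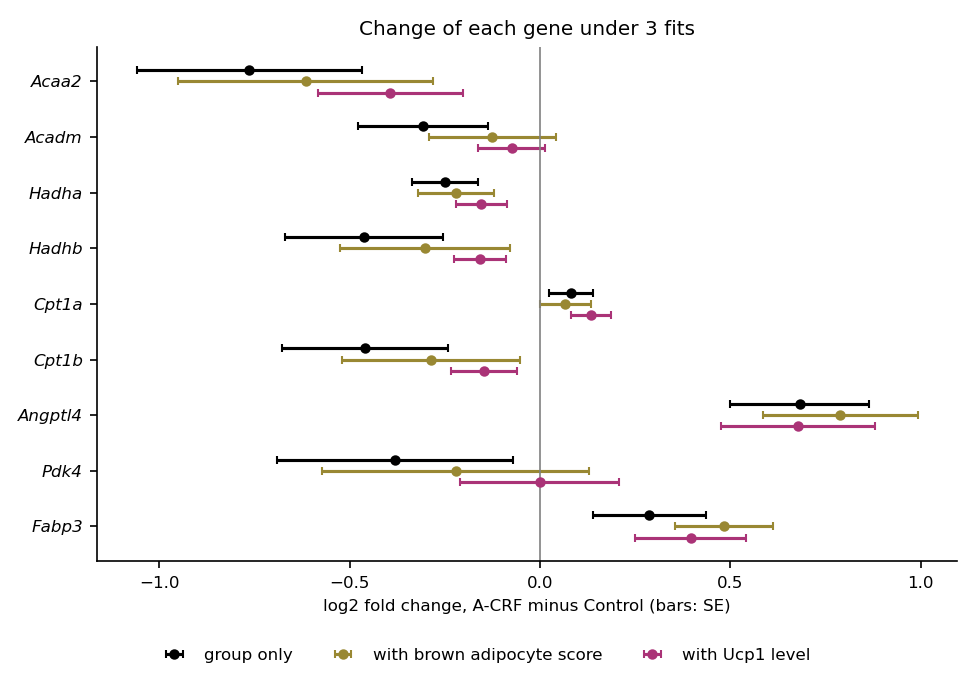
Log2 fold change (A-CRF minus Control, horizontal axis) of each gene with its SE as a bar, from limma with group alone, with the brown adipocyte score and with the Ucp1 level as a covariate (8 A-CRF and 6 Control arrays). With Ucp1 in the fit Hadhb moved from -0.46 to -0.16 and Pdk4 from -0.38 to -0.00079, and Angptl4 stayed at 0.68. Ucp1 was chosen after its values were seen, and these shifts follow from its correlation with the genes.

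Other genes of fatty acid and pyruvate use, of their control, and of the fasting and glucocorticoid response were read from 9 lists. Some genes, such as Lpl, are in more than 1 list and were counted once in the totals here. Of 123 measured genes 1 passed, lower in A-CRF (background 0.789% lower), and 122 did not. The difference was below 0 in 89 of them (background 52.7%), and the median of the 123 was -0.05 log2 units. At an unadjusted p under 0.05 limma gave 28 lower and 4 higher, against 7.23% and 7.19% of all probe sets. The gene that passed was Acat1, the mitochondrial acetoacetyl-CoA thiolase, at 8.07 ± 0.17 in Control (SD, n = 6) and 7.72 ± 0.15 in A-CRF (SD, n = 8), a fall of -0.35 ± 0.08 (SE; limma, adjusted p = 0.041). Its call ended in 10 of 14 fits that left out 1 array, which each lacked 1 of A-CRF 2 to 6 or 1 of Control 1, 3, 4, 5 and 6 (adjusted p up to 0.093), with the Ucp1 level or the white, brown or clock score as a covariate, and without the 3 arrays of high GAPDH difference (0.099; up to 0.105 over these settings). As the mean of its probe sets Acat1 differed by -0.22 ± 0.05.

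All 21 further genes of mitochondrial oxidation had a mean below that of Control, as had 52.7% of all probe sets. They were read on the same arrays, so they are not separate observations, and some differences were small, such as -0.02 for Acot2. The median was -0.20 against -0.0020 over all probe sets. That is a loose background, since 20 of the 21 genes were clear of the lowest range in Control, where most probe sets lay. Of the 21 genes 20 did not pass. Among them were the electron transfer flavoprotein subunits Etfb (-0.52 ± 0.22, SE) and Etfa (-0.44 ± 0.20) and the long-chain dehydrogenase Acadl (-0.45 ± 0.15; limma, adjusted p = 0.27, 0.34 and 0.16). The carnitine partner enzyme Cpt2 was at -0.13 ± 0.13 and the carrier Slc25a20 at -0.19 ± 0.11. In pyruvate dehydrogenase control none of 11 genes passed (median -0.16), and the largest differences were those of the pyruvate carrier Mpc1 (-0.55 ± 0.16, adjusted p = 0.089) and the enzyme subunit Pdhb (-0.35 ± 0.16). The kinases related to Pdk4 were at -0.05 (Pdk1), -0.14 (Pdk2) and 0.0081 (Pdk3). Of 12 peroxisomal genes none passed (median -0.05), with Ech1 at -0.30 and Pecr at -0.25.

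The receptors themselves did not pass: Ppara was at -0.06 ± 0.03 (SE), with a Control mean of 5.16 near the lowest values, Ppard at -0.0072 ± 0.04 and Pparg, the receptor of fat cells, at -0.22 ± 0.15. None of the 16 receptor and partner genes passed (median -0.03). Of 24 other PPAR targets none passed (median -0.05); Me1, malic enzyme, was at -0.56 ± 0.15 (limma, adjusted p = 0.078) and the lipid droplet gene Cidec at -0.49 ± 0.27. On the higher side were Txnip, a regulator of glucose uptake (0.43 ± 0.12, adjusted p = 0.089), and Vnn1, a PPAR target of liver (0.29 ± 0.08, adjusted p = 0.086), the latter from 5.50 in Control. Among 9 genes of lipoprotein lipase control none passed: Lpl, the enzyme that Angptl4 inhibits, was at -0.39 ± 0.34, with A-CRF values from 7.14 to 9.61 and Control values from 8.46 to 9.52, and the receptor Vldlr at -0.36 ± 0.09 (adjusted p = 0.060; list median -0.0045). The 8 other fatty acid binding protein genes had a median of -0.02, and 2 were clear of the lowest range in Control, Fabp4 (-0.47 ± 0.33) and Fabp5 (-0.02).

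Of 18 other genes of the fasting and glucocorticoid response none passed, and the median was 0.03. Pck1, which fat cells use to make glycerol, was at 0.82 ± 0.54 (SE) and metallothionein Mt2A at 0.73 ± 0.26, whereas the glucocorticoid target Tsc22d3 was at -0.48 ± 0.20 and Fkbp5 at -0.12 ± 0.25 (limma, adjusted p = 0.56, 0.18, 0.28 and 0.92). Feeding and time of day both act on these genes. Among clock genes that peak with Dbp none of 7 passed, and of 3 that peak with Arntl 1 was higher (Npas2, 0.78 ± 0.18) and 1 lower (Cry1, -0.86 ± 0.06). The shares over all probe sets were 1.26% higher and 0.789% lower. The clock score, the first set minus the second, was -1.98 to -0.64 on A-CRF 1 to 5 and 0.95 to 1.64 on A-CRF 6 to 8. It was -0.80 on Control 1, -0.28 on Control 6 and 0.36 to 1.19 on Control 2 to 5. A-CRF 2 to 5, low for the enzymes, thus shared a low score with A-CRF 1, which was not. With the score as a limma covariate Hadhb was at -0.45 ± 0.23 and Pdk4 at -0.26 ± 0.33. The part of clock genes was not tested further. In the control of CPT1 by malonyl-CoA none of 10 genes passed (median -0.03), with Acaca, which makes malonyl-CoA, at -0.57 ± 0.20 and Acacb at -0.07 ± 0.02 (adjusted p = 0.16 and 0.17).

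**Figure D4:**
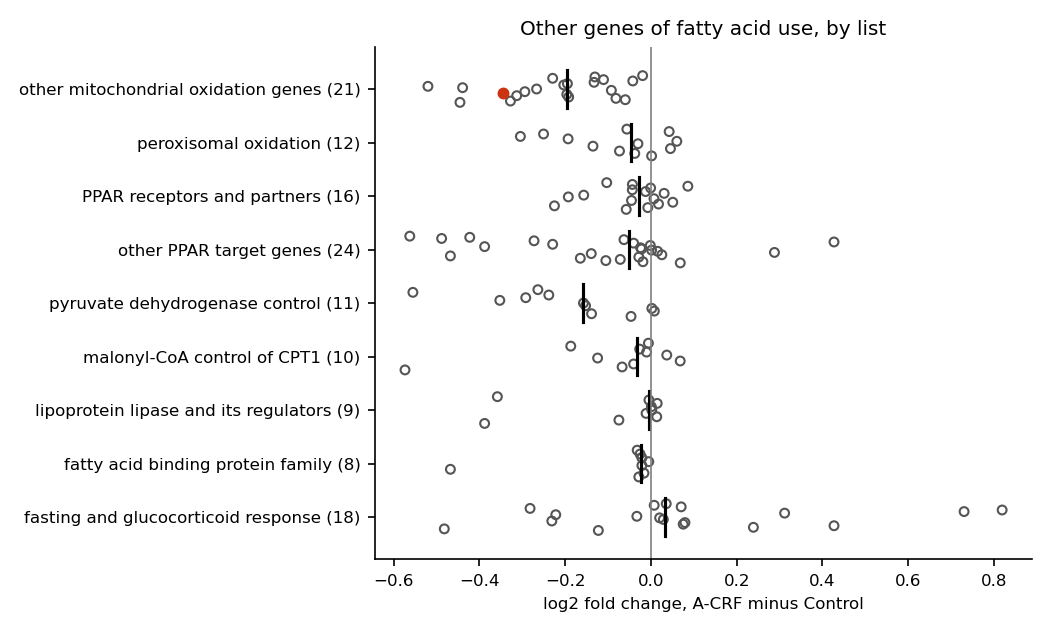
Log2 fold change (A-CRF minus Control, horizontal axis) of every measured gene in the 9 lists, 1 circle per gene in each list. A gene in more than 1 list, such as Lpl, appears in each. The list median is a black bar and the number of genes is in brackets. A filled circle passed an adjusted p of 0.05 in limma. All 21 further mitochondrial oxidation genes lie below 0, as do 52.7% of all probe sets, and the filled circle is Acat1 at -0.35.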

How the data were processed

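Biotin-labelled RNA was hybridised to an Affymetrix rat array, per the labels' protocols. The authors deposited log2-scale values, 1 per probe set. PLIER is the summary method per the submitters' processing notes; the sources used here do not give background correction, normalization between arrays, offset or log base. From 31099 probe sets 57 manufacturer controls were left out. Of the rest, 20826 had 1 gene symbol, 436 had more than 1 and 9780 had no symbol.

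The groups were compared with limma 3.58.1 (R 4.3.3; lmFit, eBayes, two-sided, group only, 12 residual degrees of freedom), with Benjamini-Hochberg adjustment over 31042 probe sets and a threshold of 0.05; the script was tested on simulated data. The number of arrays limits the precision. Exact permutation tests over 3003 relabellings (smallest possible p 0.000333) and permutation tests of correlations (100000 resamples within groups, or all orders within 1 group) were two-sided and used Python 3.11.15, numpy 2.4.6 and scipy 1.17.1.

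The 9 genes, the lists and the motifs were chosen with earlier results of these data known. From each list up to 4 genes that passed were named, or the 2 of largest change where none passed; others named were chosen for their role or after their values were seen. For each gene the 3 most similar genes were named. Cell type lists of 9 kinds were read. Adipocyte scores are means of standardised marker levels, and the clock score is that of genes high with Dbp minus that of genes high with Arntl. Promoters were from RefSeq (GRCr8); 7 of the 9 genes matched, and Acaa2 and Cpt1b did not.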

Additional observations from a re-analysis of the deposited data

Results flagged for a closer look

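In 18 groups (9 genes, each in A-CRF and Control) the highest and lowest arrays were compared with their neighbours by Dixon's ratio, which singles out about 1 in 20 groups by chance. Angptl4 in Control was singled out by Control 6, at 6.74 log2 units, where the next highest Control array was at 5.89 (ratio 0.70, above the critical value for 6 arrays). Fabp3 in A-CRF was singled out by A-CRF 1, at 7.03, where the next highest A-CRF array was at 6.40 (ratio 0.5263, barely above the critical value for 8 arrays).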

How the results depend on the processing

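Over 14 other settings and 14 fits that left out 1 array, all 9 genes kept the sign of their difference, but not its size. With all probe sets of a gene averaged, Hadha moved from -0.25 to -0.09, Acaa2 from -0.76 to -0.41, Pdk4 from -0.38 to -0.23 and Cpt1a from 0.08 to 0.05. Without Control 6 Pdk4 was at -0.20 and without A-CRF 1 Fabp3 was at 0.17. The Ucp1 and adipocyte covariates moved Acaa2, Acadm, Hadha, Hadhb, Cpt1a, Cpt1b, Pdk4 and Fabp3 by over 1.5 times in at least 1 of these fits. In 250 of these 252 gene-by-setting values no gene passed; the exceptions were Angptl4 with dim probe sets under the 40th percentile left out (1 gene higher, adjusted p = 0.048, with fewer probe sets tested) and without Control 6 (1 gene higher). The count of genes higher ranged from 0 to 1 when 1 array was left out, and the count of genes lower stayed at 0. By unadjusted exact permutation tests, run on the 9 genes only, 1 was higher and 2 were lower. The adjusted p of Angptl4 ranged from 0.0097 to 0.15 when 1 array was left out and from 0.048 to 0.17 in the other settings.

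The number of probe sets called over the whole table, 636, ranged from 307 to 979 when 1 array was left out: 979 without A-CRF 1, 416 without A-CRF 3, 352 without A-CRF 5, and 420, 345, 307 and 365 without Control 2, 4, 5 and 6. It was 1457 with array weights, 1041 with the GAPDH difference as a covariate, 285 with the white adipocyte score, 337 with the brown adipocyte score, 303 with the clock score and 224 with the Ucp1 level, a setting added after the data were seen; the cause was not tested. Offset, quantile normalization, median centring, eBayes with trend and robust options, and the choice of probe set kept that count within 1.5 times. Values near the lowest signal, such as Cpt1b on A-CRF 2 to 5 and Angptl4 on 4 of 6 Control arrays, limit what can be seen. No paired analysis was possible because the labels give no numbers shared by the groups.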
